A study of Homo sapiens with 6 samples.

Results

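The clustered protocadherins are cell adhesion proteins encoded side by side on chromosome 5 in 3 families, alpha, beta and gamma. Their genes were chosen by symbol: a transcript cluster, the array's unit for 1 transcribed locus, was kept when it carried a single gene symbol starting with PCDHA, PCDHB or PCDHG followed by a family number or letter. The rule found 30 genes of the 22465 named genes measured, namely 4 alpha, 18 beta and 8 gamma genes, out of 16, 19 and 24 such genes and pseudogenes in RefSeq (GRCh38.p14). Each of the 30 was read by 1 cluster, so no choice between clusters was needed. The gene family was proposed with results of this same comparison known, so its values are given as a description and its p-values are not independent support.

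The RNA came from MDA-MB-231, an established line of triple-negative breast cancer cells, and was read on HTA 2.0 transcriptome arrays. DSM OE cells stably overexpressed a form of DAXX, a histone chaperone and transcriptional co-regulator, with mutated SUMO-interacting motifs, through which DAXX binds the small protein modifier SUMO. DAXX OE cells stably overexpressed wild-type DAXX. Both were made by lentiviral transduction and puromycin selection at 2 µg/mL, were then grown for 24 h in complete medium, and gave 3 arrays each. Whether the 3 arrays of a group came from separate transductions is not stated, so the p-values measure the spread between these arrays only. No control-vector cells were analysed here, and every difference below is DSM OE minus DAXX OE on the log2 signal scale.

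In vertebrate neurons a cell expresses a small subset of these genes, largely by choosing promoters at random, and the proteins bind only matching partners on the next cell, which lets a neuron tell its own branches from others. Each alpha and gamma gene supplies a variable first exon that is spliced to constant exons shared by its whole family, whereas a beta gene is a single exon on its own. Promoter choice is known to involve the insulator protein CTCF, cohesin and DNA methylation, and stretches of the clusters are methylated together in breast and other cancers. In bulk RNA such as this, more cells expressing a gene and more RNA per cell cannot be told apart.

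The members' promoters share short sequence elements, which are shown because promoter choice is the known point of control of these genes. RefSeq promoter windows of 300 bases were found for 23 of the 30 members. PCDHB11, the beta member with the largest difference, had none and is not shown. Within each family the 8-letter word held by the most genes, and the rarest overall where several tied, was searched on both strands. Whether the word of a family also occurs in the other families was not counted. The beta word GTGGCGCT was in 13 of 14 beta windows, all but that of PCDHB1, at 1 to 83 bases before the annotated start. It occurred in 1.15% of all 35097 windows. In capitals below is that word in beta members on the plus strand, in the order of the genes: PCDHB9 at chr5:141187050-141187129, PCDHB12 at chr5:141208619-141208698, PCDHB13 at chr5:141213841-141213920 and PCDHB14 at chr5:141223239-141223318.
PCDHB9: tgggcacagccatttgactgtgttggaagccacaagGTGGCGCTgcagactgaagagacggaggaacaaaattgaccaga
PCDHB12: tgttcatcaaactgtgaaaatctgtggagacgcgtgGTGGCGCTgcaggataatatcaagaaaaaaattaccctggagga
PCDHB13: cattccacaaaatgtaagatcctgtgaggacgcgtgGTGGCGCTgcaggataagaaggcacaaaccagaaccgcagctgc
PCDHB14: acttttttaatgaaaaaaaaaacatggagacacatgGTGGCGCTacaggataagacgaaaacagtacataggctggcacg

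The gamma windows were split between a pair of related words. GCCGCTGT was in 11 of 20 gamma genes with a window and in 1.64% of all windows, and TCGCTGTT was in 6 others and in 0.502% of all windows. Shown with their word in capitals are the gamma members with the largest positive differences, PCDHGB2 at chr5:141359900-141359979, PCDHGA5 at chr5:141364086-141364165 and PCDHGA10 at chr5:141412909-141412988, all on the plus strand.
PCDHGB2: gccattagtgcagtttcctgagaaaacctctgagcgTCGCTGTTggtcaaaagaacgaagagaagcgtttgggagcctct
PCDHGA5: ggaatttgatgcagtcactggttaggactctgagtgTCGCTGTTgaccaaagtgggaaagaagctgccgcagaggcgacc
PCDHGA10: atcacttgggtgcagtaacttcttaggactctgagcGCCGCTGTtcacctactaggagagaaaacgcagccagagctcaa

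The alpha word, ATGTCGCT, was in 9 of 13 alpha genes with a window and in 0.234% of all windows, and PCDHA11 lacked it among the members. All these words hold the letters CGCT, which alone were found in 70.0% of all windows. The alpha, beta and gamma windows held a median of 7, 7.5 and 10 CpG dinucleotides, the sites of DNA methylation, against 14 over all promoters. A word match describes the letters only and does not show that a factor binds there.

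No protocadherin passed the adjusted threshold of 0.05 (limma, adjusted over all 22465 genes), which 14 genes or 0.0623% of all genes passed. At an unadjusted p under 0.05 there were 7 members, 6 higher and 1 lower in DSM OE cells, against 5.16% of all genes in either direction and 3.77% in the higher direction. Without DAXX OE replicate 1 the count was 13 members, against 15.1% of all genes. It was 12 after cyclic loess and 13 after quantile normalization, for which the share over all genes was not worked out. Groups that did not overlap were found with DSM OE higher for 9 members, against 13.7% of all genes, and with DSM OE lower for 2 members, against 5.5% of all genes. The members with an unadjusted p under 0.05 were PCDHB9, PCDHB11, PCDHB13 and PCDHB14 in the beta family and PCDHGB2, PCDHGA10 and PCDHGC5 in the gamma family, with none in the alpha family. The 4 beta genes lie close together in the second part of the beta family, with PCDHB12 among them.

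**Figure D1:**
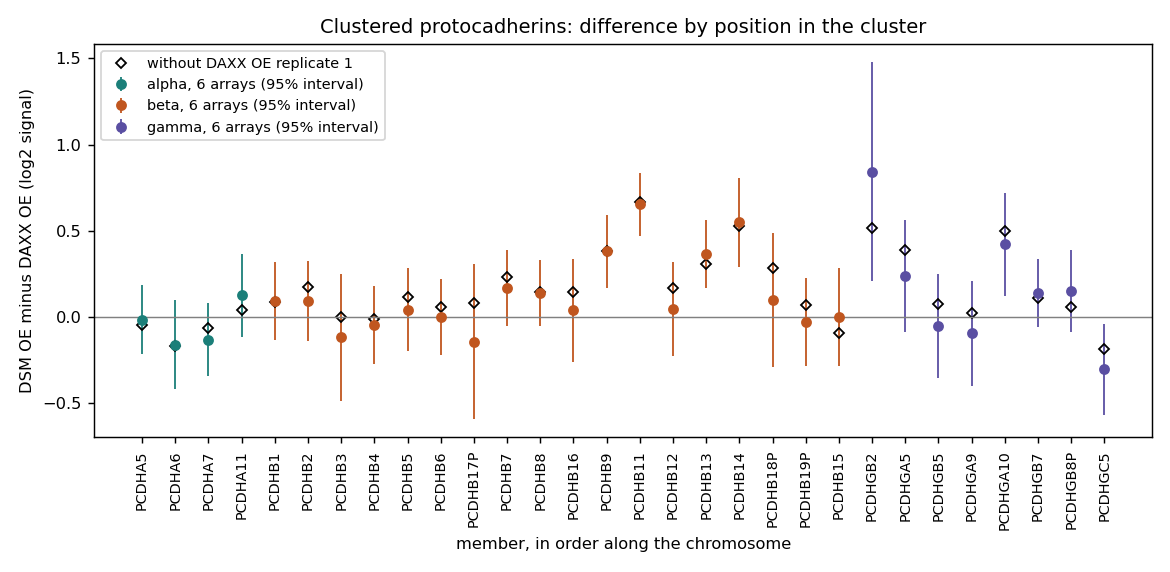
Difference in log2 signal, DSM OE minus DAXX OE, for the 30 members in chromosome order, with filled points and 95% intervals from limma on 6 arrays (alpha, beta and gamma in different colours) and open diamonds for the value without DAXX OE replicate 1. PCDHB9, PCDHB11, PCDHB13 and PCDHB14 form a run of positive values from 0.36 to 0.66, PCDHGB2 has the highest value and the widest interval, and PCDHGC5 at the end is the lowest.

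PCDHB11 lay highest in the beta family for its difference (chr5:141199627-141203779, a single-exon gene on the plus strand). Its signal was 5.74, 5.71 and 5.73 on the DSM OE arrays, against 5.09, 5.12 and 5.01 on the DAXX OE arrays. The arrays of each group stood close together and the groups were far apart, with no overlap. The difference was 0.66 ± 0.08 (SE, n = 3 each), a 1.57-fold higher signal, and the limma adjusted p was 0.0658. This was the smallest adjusted p in the family and missed the threshold.

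PCDHB14 (chr5:141223343-141227759), another beta adhesion protein, came next. It read 5.75, 5.60 and 5.45 on the DSM OE arrays, against 5.01, 4.95 and 5.18 on the DAXX OE arrays. The lowest DSM OE array was still above the highest DAXX OE array, though each group was more spread out than for PCDHB11. The difference was 0.55 ± 0.11 (SE), or 1.46-fold, with a limma adjusted p of 0.403.

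PCDHB9 (chr5:141187161-141191541) read 5.16, 5.02 and 4.99 on the DSM OE arrays, against 4.68, 4.59 and 4.76 on the DAXX OE arrays. Again every DSM OE array was above every DAXX OE array, by a smaller margin, and the difference was 0.38 ± 0.09 (SE) with an adjusted p of 0.569. A further cluster annotated to PCDHB10 and PCDHB9 together, and so not counted as a member, read 5.42, 5.64 and 5.54 in DSM OE cells, against 5.15, 5.11 and 5.35 in DAXX OE cells. Those groups did not overlap either, and the difference was 0.33. Which of these closely similar neighbours the shared cluster measured cannot be told apart.

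PCDHB13 (chr5:141213919-141218979) had signals of 5.37, 5.39 and 5.38 on the DSM OE arrays, against 4.91, 5.05 and 5.09 on the DAXX OE arrays. The DSM OE arrays were nearly equal and all lay above the DAXX OE arrays. The difference was 0.36 ± 0.08 (SE), or 1.29-fold, with an adjusted p of 0.537. PCDHB12, the gene between PCDHB11 and PCDHB13, read 4.88, 4.81 and 4.83 in DSM OE cells, against 5.03, 4.66 and 4.69 in DAXX OE cells. Its groups overlapped through the first DAXX OE array alone, and its difference was 0.05 ± 0.12 (SE).

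**Figure D2:**
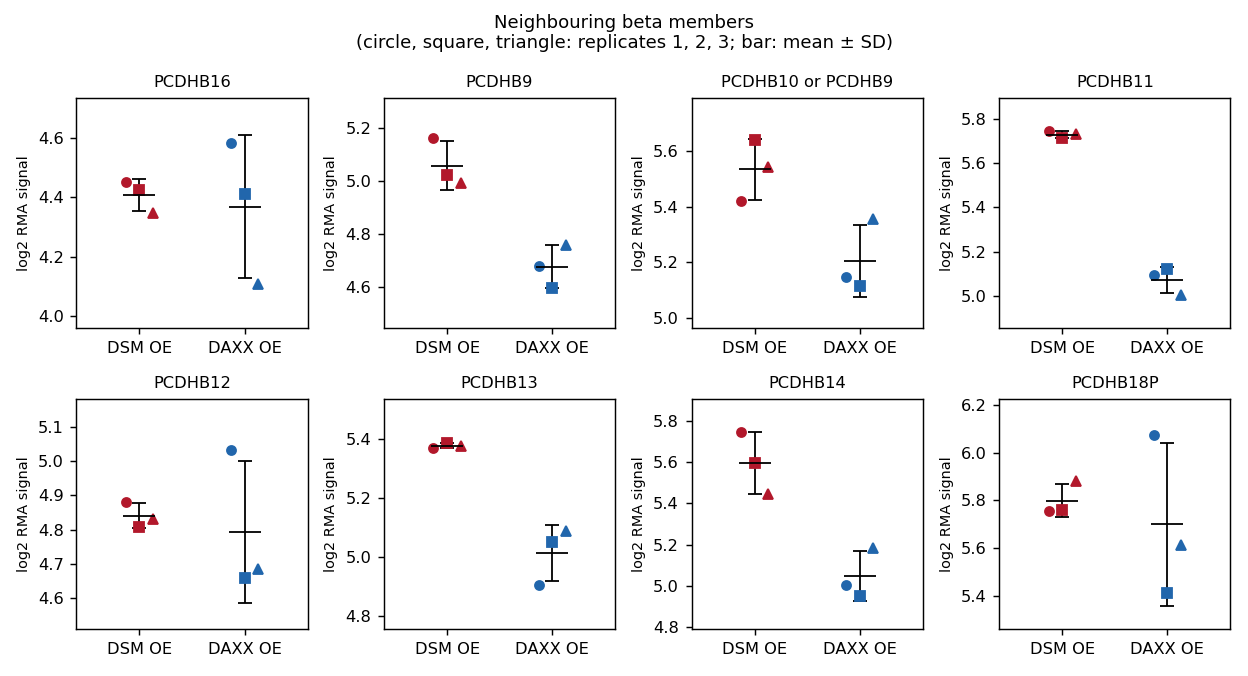
Log2 RMA signal of neighbouring beta genes on each array, DSM OE (red) left of DAXX OE (blue), with circle, square and triangle for replicates 1, 2 and 3 and a bar for the mean ± SD; each panel has its own signal axis. The groups do not overlap for PCDHB9, the cluster shared by PCDHB10 and PCDHB9, PCDHB11, PCDHB13 and PCDHB14, and they overlap for PCDHB16, PCDHB12 and PCDHB18P, the flanking or intervening genes.

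The 5 members from PCDHB9 to PCDHB14, a stretch singled out after the values were seen, had a median difference of 0.38. In this stretch 4 members had groups that did not overlap, with DSM OE higher, against 13.7% of all genes. That count was largely fixed by how the stretch was picked. The other 13 beta members had a median of 0.04, with values between -0.14 and 0.17, and PCDHB8 was the only one of them whose groups did not overlap. PCDHB8 read 5.63, 5.69 and 5.77 in DSM OE cells, against 5.57, 5.50 and 5.59 in DAXX OE cells, a difference of 0.14. Without DAXX OE replicate 1 the median of the stretch was 0.38, and that of the other 13 was 0.09 with 11 of them higher. Of those 13, 4 then had an unadjusted limma p under 0.05, all higher in DSM OE cells, against 15.1% of all genes in either direction. The difference between the stretch and the other beta members was not tested, because the stretch was picked for its values.

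Of the remaining named beta members, PCDHB5 read 5.88, 5.89 and 5.69 in DSM OE cells, against 5.92, 5.70 and 5.71 in DAXX OE cells, and its groups overlapped. PCDHB1, the first gene of the family on the chromosome, read 3.65, 3.69 and 3.62 in DSM OE cells, against 3.55, 3.43 and 3.71 in DAXX OE cells. It also overlapped between groups, and it lay under the median of the background probe sets on every array. PCDHB18P, a pseudogene next to PCDHB14, read 5.76, 5.76 and 5.88 in DSM OE cells, against 6.07, 5.41 and 5.61 in DAXX OE cells, where the first array stood far above the others. The beta word was found alike in the windows of PCDHB9, PCDHB12, PCDHB13 and PCDHB14 and in those of beta members with differences near 0.

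In the gamma family PCDHGB2 had the largest difference of all members (chr5:141359994-141512975, a range that includes the exons shared by the family). It read 8.37, 8.49 and 8.13 on the DSM OE arrays, against 6.83, 7.68 and 7.95 on the DAXX OE arrays. The groups did not overlap, but the first DAXX OE array was by far the lowest and the other two were closer to the DSM OE arrays. The difference was 0.84 ± 0.27 (SE), or 1.79-fold, with a 95% interval from 0.21 to 1.48 and a limma adjusted p of 0.682.

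PCDHGA10 (chr5:141412987-141512975) read 4.02, 3.97 and 3.64 in DSM OE cells, against 3.61, 3.40 and 3.36 in DAXX OE cells. The groups were separated by the narrow gap between the third DSM OE array and the first DAXX OE array. Its difference was 0.42 ± 0.13 (SE) with an adjusted p of 0.682, and its signal was under the background median on all 6 arrays. PCDHGA5 (chr5:141364162-141512975) read 5.88, 5.96 and 5.98 in DSM OE cells, against 6.01, 5.59 and 5.51 in DAXX OE cells. Here the first DAXX OE array was above all DSM OE arrays and the other DAXX OE arrays were below them, and the difference was 0.24 ± 0.14 (SE).

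PCDHGC5 is one of the C-type genes at the far end of the family, which in neurons are expressed more broadly than the randomly chosen A and B types. It was the only member with an unadjusted p under 0.05 that was lower in DSM OE cells. It read 5.33, 5.34 and 5.34 on the DSM OE arrays, against 5.87, 5.52 and 5.53 on the DAXX OE arrays, and all DSM OE arrays lay below all DAXX OE arrays. The difference was -0.30 ± 0.11 (SE) with an adjusted p of 0.682.

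PCDHGB7 and the pseudogene PCDHGB8P differed little. PCDHGB7 read 6.35, 6.44 and 6.35 in DSM OE cells, against 6.18, 6.22 and 6.32 in DAXX OE cells, a difference of 0.14. PCDHGB8P read 5.89, 5.95 and 5.93 in DSM OE cells, against 5.59, 5.85 and 5.88 in DAXX OE cells, a difference of 0.15. In both the groups did not overlap, by narrow gaps, and both limma adjusted p-values were 0.682. PCDHGB5 and PCDHGA9 had overlapping groups, with differences of -0.05 and -0.09.

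**Figure D3:**
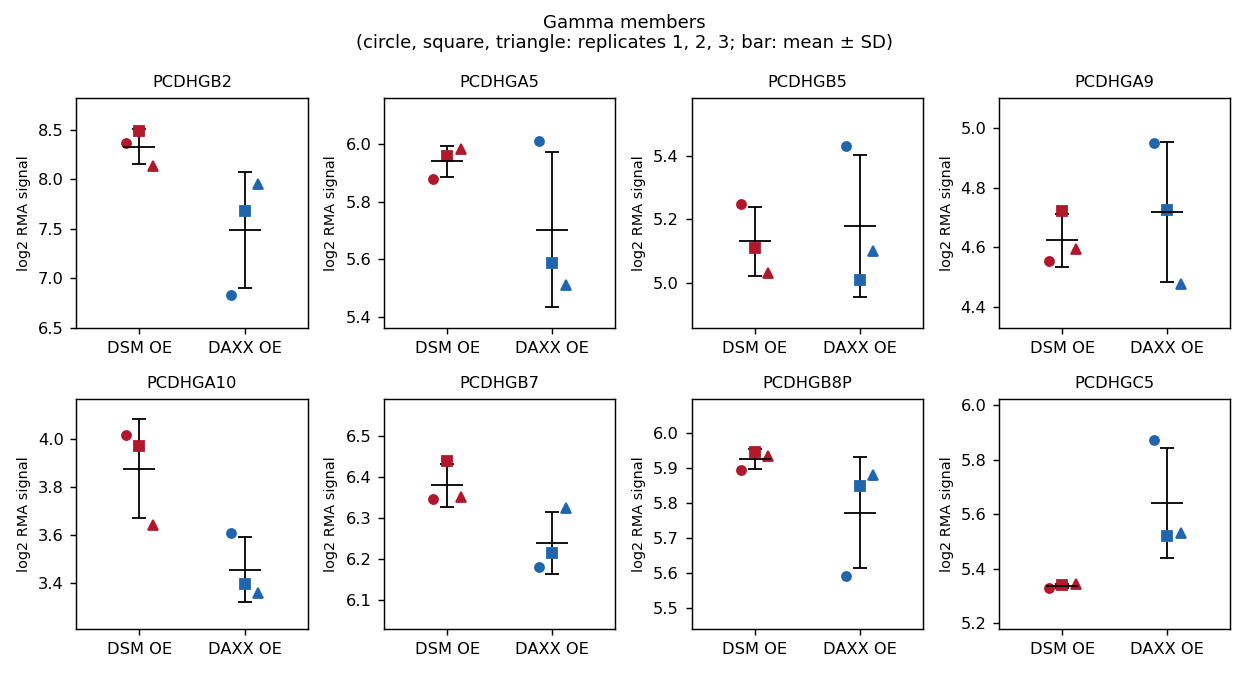
Log2 RMA signal of the 8 gamma members on each array, DSM OE (red) left of DAXX OE (blue), with circle, square and triangle for replicates 1, 2 and 3 and a bar for the mean ± SD; each panel has its own signal axis. DAXX OE replicate 1 (blue circle) stands apart from the other DAXX OE arrays in most panels, at 6.83 in PCDHGB2 and at 5.87 in PCDHGC5.

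The 4 alpha members showed no difference with an unadjusted p under 0.05. PCDHA5 read 5.62, 5.63 and 5.49 in DSM OE cells, against 5.52, 5.62 and 5.63 in DAXX OE cells, with overlapping groups. PCDHA7 read 4.26, 4.28 and 4.29 in DSM OE cells, against 4.55, 4.31 and 4.37 in DAXX OE cells, so its DSM OE arrays were all the lower ones, at a difference of -0.13 and a limma adjusted p of 0.682. It lay above the background median on only 1 array, the first DAXX OE array, which limits what this separation can show. PCDHA6 and PCDHA11 had signals under the background median on all arrays and differed by -0.16 and 0.13 with overlapping groups. A cluster annotated to 15 alpha genes at once, which is no member, read 3.97, 4.01 and 3.96 in DSM OE cells, against 4.23, 3.96 and 4.03 in DAXX OE cells, and its groups overlapped.

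Over each family, the median difference was -0.07 for alpha on the deposited values, which turned to 0.02 after cyclic loess and after quantile normalization, 0.07 for beta and 0.15 for gamma, against 0.01 over all genes. The gamma median was 0.09 without DAXX OE replicate 1 and 0.22 after cyclic loess. Higher values in DSM OE cells were seen for 1 of 4 alpha, 13 of 18 beta and 5 of 8 gamma members, against 51.3% of all genes. Genes at or below the median signal, where every member except PCDHGB2 lies, were higher in DSM OE cells in 26.6% of cases and had a median difference of -0.09. That low share came with DAXX OE replicate 1: without this array it was 50.3%, and the median was 0.0006.

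Signals on these arrays depend on the affinity of each probe set, so they were compared between arrays and not between genes. The median of the 23 background probe sets was 4.26 to 4.46 on the 6 arrays, and 21 of the 30 members lay above it on every array while 4 lay below it on every array. Of all 22465 genes, 19312 lay above it on every array and 1569 on no array. Single background probe sets ranged from 1.70 to 11.66, so a signal above their median does not show that a gene is expressed.

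The first DAXX OE array was unlike the remaining 5. Its correlation with them over all genes was 0.973 to 0.980, against 0.996 to 0.998 among the other 5 arrays, and the spread of its gene signals was narrower, with an SD of 1.63 against 1.82 to 1.85. On it 20 of the 30 members read above the mean of the other DAXX OE arrays, by a median of 0.19 over the members, and the genes at or below the median signal did so by a median of 0.26. In the PCDHB9 to PCDHB14 stretch that median was 0.0017, whereas it was 0.22 for the other beta members. The stretch was picked for its values, which favours members not raised on this array, so this contrast was largely fixed in advance. PCDHB12, which lies inside the stretch, was raised by 0.36. Why this array differs was not tested.

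**Figure D4:**
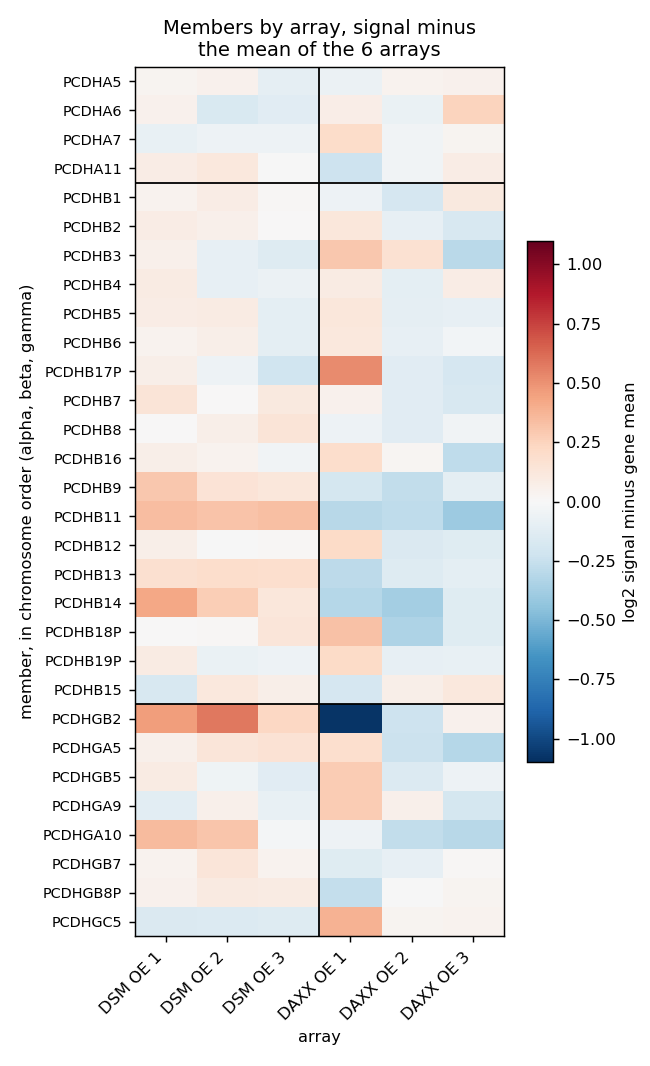
Log2 signal of each member on each array minus that member's mean over the 6 arrays, with members in chromosome order from the top and DSM OE arrays left of DAXX OE arrays; red is above and blue below the member's mean. PCDHB9, PCDHB11, PCDHB13 and PCDHB14 are red on the DSM OE arrays and blue on all DAXX OE arrays, while DAXX OE 1 is red in many other beta members and deep blue in PCDHGB2.

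Without DAXX OE replicate 1, 3 members passed the adjusted threshold, all higher in DSM OE cells, against 280 genes or 1.25% of all genes. PCDHB11 then differed by 0.67 with a limma adjusted p of 0.00453, PCDHB13 by 0.31 with an adjusted p of 0.0261, and PCDHGA5 by 0.39 with an adjusted p of 0.0293. PCDHB9 and PCDHB14 kept differences of 0.38 and 0.53 but missed the threshold, with adjusted p-values of 0.0812 and 0.0872. PCDHB12 moved to 0.17 and PCDHB18P to 0.29, both short of the threshold. In the gamma family the difference of PCDHGB2 was 0.51 with an adjusted p of 0.125, PCDHGA10 stood at 0.50 and PCDHGC5 at -0.19. The gamma members PCDHGB8P, PCDHGB5 and PCDHGA9 stood at 0.06, 0.08 and 0.02, and the alpha members PCDHA7 and PCDHA11 at -0.06 and 0.04. Higher values in DSM OE cells were then found for 24 of the 30 members, against 52.4% of all genes and 50.3% of those at or below the median signal. The beta median was then 0.15 and the gamma median 0.09. The array was singled out in these same data, so p-values without it may be too small.

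The companion genes of the clusters, taken from lists, gave no gene past the adjusted threshold on 6 arrays. The medians of their lists moved without DAXX OE replicate 1, so the value on 6 arrays is followed by the value without it. Of the known regulators of the clusters, 25 of 27 were measured, and 22 were higher in DSM OE cells on 6 arrays and 13 without that array, with a median difference of 0.11 on 6 arrays and 0.01 without it. Over all genes 51.3% were higher on 6 arrays and 52.4% without that array. All 25 regulators lay above the median signal, where genes were more often higher on 6 arrays than over all genes. CTCF, which binds the protocadherin promoters, averaged 9.73 ± 0.02 in DSM OE cells and 9.76 ± 0.20 in DAXX OE cells (SD, n = 3 each), a difference of -0.03 that was -0.14 without the array. The cohesin loader NIPBL differed by 0.31 on 6 arrays and 0.12 without it. The 5-methylcytosine oxidase TET1, the only regulator with an unadjusted p under 0.05, differed by 0.40 and 0.22, and the de novo methyltransferase DNMT3B by 0.24 and 0.11. The signs turned for the silencing factors SMCHD1, at 0.13 and -0.01, and SETDB1, at 0.09 and -0.12. UHRF1, a factor of methylation maintenance, differed by -0.04 and -0.11, and DNMT1, the maintenance methyltransferase, averaged 10.90 in both groups.

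Binding and processing partners of the proteins were measured for 19 of 22 genes, and their median of 0.06 was 0.0005 without DAXX OE replicate 1 and -0.03 after cyclic loess. CYFIP2, a subunit of the actin-regulating WAVE complex, averaged 6.21 ± 0.04 in DSM OE cells and 5.91 ± 0.06 in DAXX OE cells (SD, n = 3 each), and it passed the threshold only without that array (difference 0.33, limma adjusted p = 0.0293). TSC2 differed by 0.20 on 6 arrays and 0.12 without the array, RET by -0.09 and -0.0014, and PTK2B by -0.01 and 0.09.

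The 12 non-clustered protocadherins, single genes elsewhere in the genome or beside the clusters, did not keep 1 direction as a list: the median was -0.09 with 3 higher in DSM OE cells on 6 arrays, and 0.01 with 7 higher without DAXX OE replicate 1. Only 3 of the 12 lay above the median signal. Genes at or below it were higher in 26.6% of cases on 6 arrays and 50.3% without that array. PCDH7 differed by 0.33 and 0.14, PCDH1 by 0.07 and 0.12, PCDH9 by -0.19 and -0.30, and PCDH12 by -0.11 and 0.0015. PCDH20 differed by -0.31 and -0.36. The classical and related cadherins, the calcium-dependent adhesion proteins of the same superfamily, were measured for 17 of 19 genes and had a median of -0.09 on 6 arrays and -0.02 without the array. CDH9 differed by 0.18 and 0.16, CDH24 by 0.11 and 0.04, and CDH5 by -0.31 and -0.32. CDH12 differed by -0.55 and -0.72, and passed the threshold only without the array (limma adjusted p = 0.00355).

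Genes next to the clusters were measured for 30 of 33, with 26 higher in DSM OE cells and a median of 0.12 on 6 arrays, and 21 higher and a median of 0.02 without DAXX OE replicate 1. Over all genes 51.3% and 52.4% were higher, and 24 of the 30 neighbours lay above the median signal, as the regulators did. Between the beta and gamma families lie TAF7, which differed by 0.09 on 6 arrays and -0.05 without the array, and SLC25A2, at -0.10 and -0.09. On the high side were the monocyte receptor CD14, at 0.28 and 0.20, and DELE1, a mitochondrial stress protein, at 0.27 and 0.11. On the low side were VTRNA1-1, a vault RNA, at -0.21 and -0.45, and DND1 at -0.13 and -0.06. On 6 arrays all 30 neighbours had smaller signed differences than PCDHB9, PCDHB11, PCDHB13 and PCDHB14. Those beta genes were picked for their values, so this contrast was largely fixed in advance. It was not tested and cannot show that they stand apart from the neighbours. Without DAXX OE replicate 1, the difference of VTRNA1-1, -0.45, was larger in size than those of PCDHB9, 0.38, and PCDHB13, 0.31. It was smaller in size than those of PCDHB11, 0.67, and PCDHB14, 0.53.

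**Figure D5:**
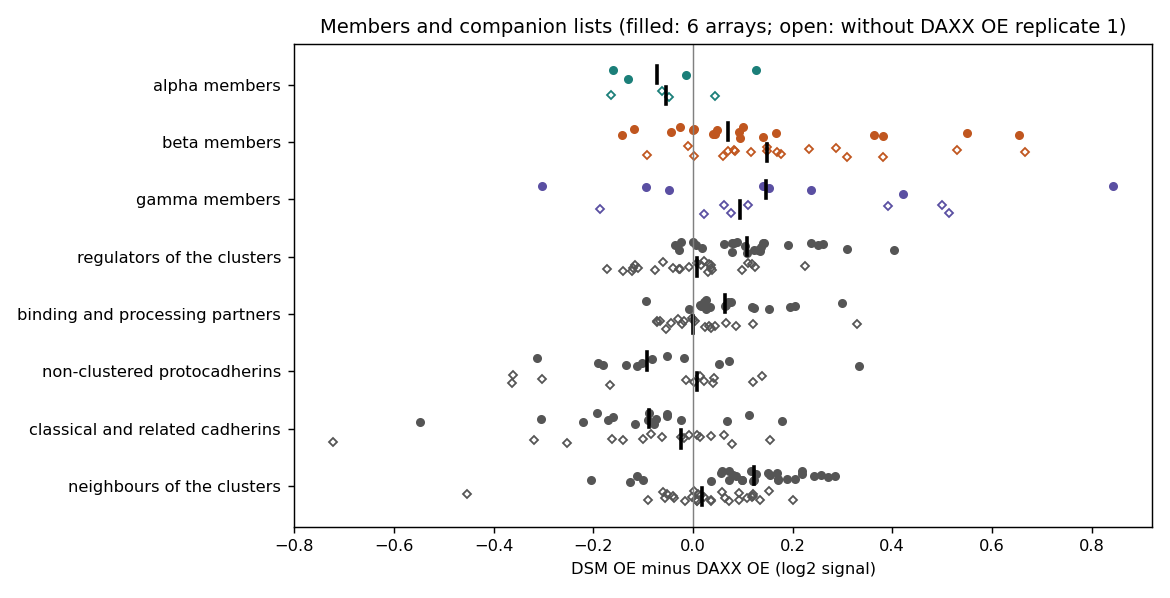
Difference in log2 signal, DSM OE minus DAXX OE, for the members of each family and for the genes of 5 companion lists, with filled points for 6 arrays, open diamonds without DAXX OE replicate 1 and black bars for the medians. The regulators and neighbours lie mostly right of 0 on 6 arrays, at medians of 0.11 and 0.12, and centre near 0 without that array, whereas the beta median is 0.15 without it and 0.07 with it.

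The markers of the line were read against the background probe sets. All 6 genes expected to be high in this mesenchymal-like line, VIM, AXL, MSN, CD44, CAV1 and SPARC, lay above the background median on every array. So did 19312 of all 22465 genes, so this is a low bar. Of the 6 measured genes expected to be low, PGR lay under the background median on every array, whereas CDH1, ESR1, GATA3, EPCAM and KRT19 lay above it on every array. Above the median signal of all genes lay 5 of the 6 expected to be high, all but SPARC, and 3 of the 6 expected to be low. The epithelial markers EPCAM and KRT19 also moved with the groups: EPCAM averaged 7.84 in DSM OE cells and 7.50 in DAXX OE cells, and KRT19 averaged 9.58 in DSM OE cells and 9.23 in DAXX OE cells, with no overlap in either. Their differences of 0.33 and 0.35, which were 0.18 and 0.25 without DAXX OE replicate 1, had limma adjusted p-values of 0.682, and their part in the protocadherin values was not tested. The 7 neuronal markers measured lay above the background median on every array, as most genes did. Their median difference was -0.09 on 6 arrays and 0.02 without DAXX OE replicate 1. DAXX itself averaged 9.34 ± 0.03 in DSM OE cells and 8.86 ± 0.16 in DAXX OE cells (SD, n = 3 each), a difference of 0.49, and passed the adjusted threshold only without DAXX OE replicate 1 (limma adjusted p = 0.0144). Whether its probes see the transgenes as well as the endogenous gene is not stated, and the part of the DAXX level in the protocadherin values was not tested.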

How the data were processed

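HTA 2.0 arrays were processed by the authors with robust multi-array averaging (RMA), and the table they deposited holds log2 signals. Affymetrix Expression Console 1.3 is the tool named in the submitters' processing notes. The methods describe a ComBat batch correction, and whether it touched these 6 arrays is not stated. Precision is limited by the number of arrays, since a signal of this kind has no depth in reads. Which exon a cluster's probes lie in is not stated, and members of near-identical sequence may share signal.

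Of 25324 annotated clusters, 23781 carried 1 symbol. They were matched to RefSeq by Entrez identifier, except 2284 without such a match, which kept the symbol of the array annotation. Among the members these were PCDHA5, PCDHA6 and PCDHA7, matched by symbol alone. Each gene was read by its cluster of highest mean, and dim genes were kept. The difference, DSM OE minus DAXX OE, was fitted over 22465 genes with lmFit and a 2-sided eBayes test (limma 3.58.1, R 4.3.3), with Benjamini-Hochberg adjustment and a threshold of 0.05. The code was tested on simulated data.

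Members and lists were chosen with earlier results of these data known. Named in each family were members with an unadjusted p under 0.05, the 4 of highest signal, the largest differences without overlap, and PCDHB1 and the C-type genes. Other members are named where they flank these, chosen after their values were seen. In companion lists the highest and lowest 2 were named, with a few fixed regulators and neighbours. Alternatives were a replicate block, each array left out, other normalizations, the mean of a gene's clusters, only genes above the median signal, another eBayes prior, and the methods' t-test and thresholds.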

Additional observations from a re-analysis of the deposited data

How the results depend on the processing

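Against 14 genes called by limma, 40 were called with the replicate block, 25 after cyclic loess, 5 among genes above the median signal and 1 by the methods' t-test after Benjamini-Hochberg adjustment. At the methods' thresholds, a fold beyond 1.3 and an unadjusted p under 0.05, limma called 505 genes and 5 members, and the methods' t-test called 247 genes and 4 members. Leaving out 1 array gave 1 to 280 genes and 0 to 3 members, where the highest of each came without DAXX OE replicate 1. A count of 1 gene was left without each DSM OE replicate in turn, 2 without DAXX OE replicate 2 and 3 without DAXX OE replicate 3. The replicate block and the adjusted t-test called 0 members, as limma did, and 7 had an unadjusted limma p under 0.05 (5 to 13 with 1 array left out, 12 after cyclic loess, 13 after quantile normalization). The share over all genes was 5.16% on 6 arrays and 15.1% without DAXX OE replicate 1. For the other settings it was not worked out. Same-numbered arrays did not deviate together (correlations of -0.05, -0.30 and 0.17), so the numbers were not taken to pair the arrays. The alpha median, -0.07, was 0.0240 after cyclic loess and 0.0209 after quantile normalization. The beta median, 0.07, was 0.16 after cyclic loess and 0.15 after quantile normalization, and ranged from 0.0286 to 0.148 when 1 array was left out. Among the 18 named members, 226 of 235 alternative values kept direction and side of the threshold. That count says little about robustness. The replicate block, the other eBayes prior, the t-test and the mean of a gene's clusters cannot change a member's difference. Most adjusted p-values of the main fit also lay far from the threshold. The 3 that passed only in an alternative were PCDHB11, PCDHB13 and PCDHGA5 without DAXX OE replicate 1. The 6 with the opposite sign were in PCDHA5 (0.0859 after cyclic loess, 0.0697 after quantile normalization, -0.0482 to 0.0317 over arrays left out) and PCDHB18P (-0.0447 to 0.287 over arrays left out). The cause of these shifts was not tested. PCDHA6, PCDHA11, PCDHB1 and PCDHGA10 lay under the background median on every array, which limits what their signals can show.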
